A study of Mus musculus with 10 samples.

Results

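Expression of 9 genes of retinoid (vitamin A) uptake and metabolism was examined in the jejunum of 5-day-old mice. The genes are Scarb1, Isx, Rbp2, Lrat, Rdh7, Aldh1a1, Aldh1a2, Crabp2 and Rarb. They were chosen by symbol, and all 9 were found among the 24062 gene symbols counted in each library. The 9 genes and the further lists below were chosen with earlier results of these data known. Counts of called genes among them are therefore description only. Polyadenylated RNA was sequenced in 5 jejunum libraries of WT and 5 of KSR23 mice, to ask how IL-23 from keratinocytes affects the neonatal intestine. WT mice were wild-type C57BL/6 animals. KSR23 mice (genotype KSR23+, same strain label) carry an IL-23 cassette that stays silent until a cre recombinase removes a stop signal. The cre was driven by the K14 promoter, a promoter of keratinocytes and not of the jejunal epithelium, and whole jejunum was measured. All animals were taken at postnatal day 5. The study calls the libraries of a group biological replicates and states, for its mouse experiments in general, that littermates were the usual controls. The labels give neither the sex of the mice nor their litters, so n counts libraries and p-values measure the spread between these 10 samples.

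Vitamin A enters the enterocyte either as retinol, from retinyl esters of the diet and milk, or as carotenoids taken up by receptors such as Scarb1 and cleaved to retinal. Inside the cell, retinol is held by the binding protein Rbp2 and esterified by Lrat, and the esters leave in chylomicrons. Part of it is oxidised, first to retinal by retinol dehydrogenases (Rdh, Dhrs, Sdr and Adh enzymes) and then to retinoic acid by the Aldh1a enzymes. Retinoic acid is carried to its nuclear receptors by Crabp2, and the receptors switch on genes such as Rarb, Cyp26a1 and Isx.

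Retinoic acid receptors bind pairs of 6-letter motifs in direct repeat, so the stretch upstream of the start site was read for the genes the results turn on. RefSeq windows (build GRCm38.p6, the same assembly as mm10) were given for 7 of the 9 genes, in 9 windows, and not for Scarb1 and Crabp2. In the 250 bases before each start, both strands were searched for any pair of these motifs spaced by 1, 2 or 5 bases. The motif was read as AGGTCA or as either of the near variants GGGTCA and, by the same rule, AGTTCA, or as the further variant GGTTCA. Of the 7 genes, Rarb alone held such a pair, with a spacing of 5. In the wider list of retinoid genes described below, Cyp26a1 held a pair with a spacing of 5 and Bco1 a pair with a spacing of 1. Over 32851 windows of all genes, 0.164% held a pair with a spacing of 1, 0.174% with a spacing of 2 and 0.0883% with a spacing of 5. The sequences below are those of the 3 genes that fell in KSR23 mice (Lrat, Rdh7 and Aldh1a1) and of the 2 genes with a spacing of 5, each written 5′ to 3′ towards the start site, with the motif pair in capitals.
Lrat, chr3:82903975-82904224, minus strand: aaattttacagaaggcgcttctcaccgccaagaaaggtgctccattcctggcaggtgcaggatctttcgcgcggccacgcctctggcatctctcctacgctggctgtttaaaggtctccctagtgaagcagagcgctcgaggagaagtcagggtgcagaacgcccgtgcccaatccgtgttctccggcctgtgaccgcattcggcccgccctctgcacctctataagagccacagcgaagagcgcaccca
Rdh7, chr10:127888734-127888983, minus strand: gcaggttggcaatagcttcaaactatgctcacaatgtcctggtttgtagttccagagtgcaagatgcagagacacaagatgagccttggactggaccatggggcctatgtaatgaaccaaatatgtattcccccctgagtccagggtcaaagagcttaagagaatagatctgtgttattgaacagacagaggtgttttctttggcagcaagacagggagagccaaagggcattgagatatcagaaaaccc
Aldh1a1, chr19:20492333-20492582, plus strand: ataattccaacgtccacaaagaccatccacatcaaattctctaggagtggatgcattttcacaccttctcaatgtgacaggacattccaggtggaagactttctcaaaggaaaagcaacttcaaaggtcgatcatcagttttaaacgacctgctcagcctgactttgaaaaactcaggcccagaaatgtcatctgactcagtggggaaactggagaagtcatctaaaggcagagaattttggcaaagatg
Rarb, chr14:16575477-16575726, minus strand: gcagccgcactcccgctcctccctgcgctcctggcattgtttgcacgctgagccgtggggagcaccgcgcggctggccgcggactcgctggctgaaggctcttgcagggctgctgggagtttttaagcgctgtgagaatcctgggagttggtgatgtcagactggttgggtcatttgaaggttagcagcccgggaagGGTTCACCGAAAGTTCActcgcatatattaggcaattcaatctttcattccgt
Cyp26a1, chr19:37697558-37697807, plus strand: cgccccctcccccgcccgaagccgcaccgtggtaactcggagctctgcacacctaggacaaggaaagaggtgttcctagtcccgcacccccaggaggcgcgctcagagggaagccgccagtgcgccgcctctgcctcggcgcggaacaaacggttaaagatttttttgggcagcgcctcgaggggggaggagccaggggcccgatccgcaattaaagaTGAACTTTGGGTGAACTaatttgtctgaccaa

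The pair of Rarb lay 53 to 37 bases before the start and that of Cyp26a1, which reads on the opposite strand, 32 to 16 bases before it. The windows of Lrat, Rdh7 and Aldh1a1 held no pair of these letters. They also differed in base composition: 59.2% G or C with 18 CG dinucleotides for Lrat, 46.0% with 0 for Rdh7 and 42.8% with 3 for Aldh1a1, against 58.0% with 16 for Rarb. For Rdh7 and Aldh1a1, which have a second window each, these are the values of the window printed, and the other held 45.6% with 0 and 46.4% with 1. A match or its absence describes only these letters in this window.

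The libraries held 25.5 to 32.0 M counts in genes (M stands for 1e6) in WT and 31.2 to 60.9 M in KSR23, so that a floor of 3 counts stood at 0.0427 to 0.119 CPM (counts per 1e6, with TMM-scaled library totals). Enterocyte genes were abundant: Fabp2 was at 9965 ± 2800.2 CPM (SD, n = 5) in WT, and of the distal intestinal markers Fabp6 and Slc10a2 were at 0.0525 and 0.0765 CPM, on average under the floor, and Fgf15 and Osr2 at 4.70 and 13.6 CPM. The libraries were unlike each other within groups in a way that touches several of the 9 genes. Relative to the mean of all libraries, expression across 12321 genes correlated negatively with the GC content of the gene in WT replicates 1 and 5 and KSR23 replicates 3 and 5 (Spearman's rho -0.310 to -0.156), and positively in the other 6 (0.109 to 0.268). In addition, WT replicates 4 and 5 and KSR23 replicates 4 and 5 were the lowest or highest of their group at 15.5% to 22.9% of 17632 genes, and the other 6 libraries at 41.1% to 62.4%. For the 9 genes these 4 libraries were the lowest or highest in 0 or 1 case each, against 3 to 8 for the others. Beyond the term biological replicates, the sources used here do not state that these 4 libraries came from animals other than those of replicates 1 to 3. If they did not, n = 5 overstates the replication, so values from replicates 1 to 3 alone are given for the called genes. The groups were also unlike in Uty, Kdm5d, Ddx3y and Eif2s3y, genes of the Y chromosome, which summed to 492 to 6347 counts in the WT libraries and to 9035 and 4330 in KSR23 replicates 1 and 4, but to 9, 1 and 1 in KSR23 replicates 2, 3 and 5. With the Y-linked share as a covariate Lrat, Rdh7 and Aldh1a1 kept their calls. In whole tissue, fewer cells of a type and less RNA per cell cannot be told apart.

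Of the 9 retinoid genes, 3 were called at an adjusted p under 0.05 (edgeR likelihood ratio test, adjusted over 17632 genes), all 3 lower in KSR23: Lrat, Rdh7 and Aldh1a1. Across all genes tested, 18.5% were called, 8.76% lower and 9.73% higher. The quasi-likelihood F test called the same 3 of the 9 genes and 15.4% of all genes. In these 3 genes every KSR23 library lay below every WT library, as in 6.99% of all genes, and in none of the 9 did every KSR23 library lie above, as in 7.41% of all genes. The 3 genes encode enzymes that esterify or oxidise retinoids. The genes for uptake (Scarb1), its repressor (Isx), retinol binding (Rbp2), the second retinal dehydrogenase (Aldh1a2) and retinoic acid reception (Crabp2 and Rarb) did not pass the test. With replicates 1 to 3 alone, 2 of the 9 genes were called beside 3.36% of all genes, and 1 by the quasi-likelihood F test beside 0.812%. In the 4 libraries of negative and the 6 of positive GC correlation taken apart, 12.7% and 17.6% of all genes were called. The median log2 fold change of the 9 genes was -1.22 and that of all genes tested 0.03.

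**Figure D1:**
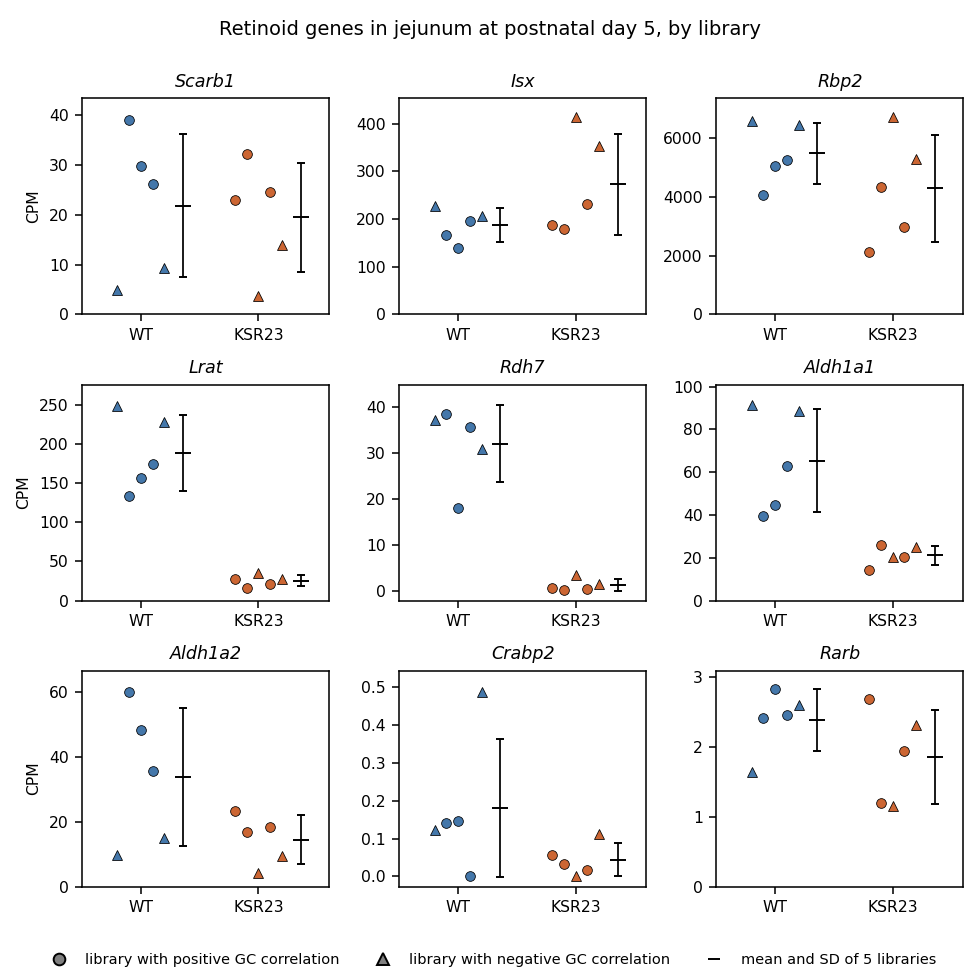
CPM (y axes, linear and separate for each gene) of the 9 retinoid genes in the 5 WT (blue) and 5 KSR23 (orange) libraries, replicates 1 to 5 from left to right; circles and triangles mark libraries with a positive and a negative GC correlation, and the bar to the right of each group is the mean ± SD. Lrat, Rdh7 and Aldh1a1 show no overlap between the groups, whereas in Scarb1 and Aldh1a2 the triangles lie below the circles in both groups.

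Lrat, the acyltransferase that esterifies retinol for storage and for export in chylomicrons (chr3:82892579-82903973, minus strand, mm10), had the smallest adjusted p of the 9 genes. Its level was 249, 133, 157, 174 and 229 CPM in WT replicates 1 to 5. In KSR23 replicates 1 to 5 it was 27.9, 16.0, 34.6, 21.5 and 27.7 CPM. The highest KSR23 library thus lay far below the lowest WT library. Mean expression was 188 ± 48.8 CPM in WT and 25.5 ± 7.06 CPM in KSR23 (SD, n = 5), 7.39-fold lower, from 3769 to 8047 and from 496 to 1960 counts. The log2 fold change was -2.88 ± 0.30 (SE, adjusted p = 2.53e-17, edgeR likelihood ratio test), and the quasi-likelihood F test of edgeR gave an adjusted p of 3.82e-05. With replicates 1 to 3 alone it was -2.75 (edgeR adjusted p = 0.000192), and within the libraries of negative and of positive GC correlation it was -3.08 and -2.72. None of the 75-base stretches of Lrat occurs in another gene. Across the 25 fits made, its log2 fold change ran from -3.08 to -2.71 and passed the threshold in all 25.

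Rdh7, a short-chain dehydrogenase that oxidises retinols and some steroids (chr10:127884028-127888817, minus strand, mm10), had the largest fold change of the 9 genes. WT replicates 1 to 5 stood at 37.1, 38.4, 18.0, 35.5 and 30.7 CPM, or 490 to 1234 counts. KSR23 replicates 1 to 5 stood at 0.668, 0.226, 3.34, 0.354 and 1.38 CPM, or 7 to 84 counts. All KSR23 libraries were above the floor of 3 counts, and KSR23 replicate 3 was the highest of them. The mean fell from 31.9 ± 8.32 to 1.19 ± 1.28 CPM (SD, n = 5), 26.7-fold lower, with a log2 fold change of -4.75 ± 0.59 (SE, edgeR adjusted p = 3.24e-10, quasi-likelihood 0.000735). Leaving out 1 library gave -5.60 (without KSR23 replicate 3) to -4.45, and the Y-linked covariate gave -5.89. With replicates 1 to 3 alone it was -4.44 (edgeR likelihood ratio adjusted p = 0.000713), and the quasi-likelihood F test on these 6 libraries gave an adjusted p of 0.0996. Within the libraries of negative GC correlation the difference was -3.97, and within those of positive correlation -6.03. Of its 75-base stretches 6.11% occur in Rdh18-ps, Hsd17b6 or Rdh1, and reads from these stretches have several alignments and were not counted. Rdh7 is also expressed in liver. Of 4 hepatocyte markers, Alb was called lower by the likelihood ratio test (1.98 ± 1.10 CPM in WT and 0.448 ± 0.451 CPM in KSR23, SD, n = 5) and not by the quasi-likelihood F test (edgeR adjusted p = 0.0938), Serpina1a was lower (250 and 8.03 CPM), Fgb was higher (0.510 and 5.68 CPM) and Ahsg was not called (1.66 and 0.697 CPM). The part of these markers in the result was not tested.

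Aldh1a1, which oxidises retinal to retinoic acid (chr19:20492715-20643465, plus strand, mm10), fell by less. Its level was 91.4, 39.4, 44.7, 62.8 and 88.4 CPM in WT replicates 1 to 5 and 14.4, 25.8, 20.1, 20.3 and 25.1 CPM in KSR23 replicates 1 to 5. WT replicates 1 and 5 were the highest of all 10, and the gap between the lowest WT and the highest KSR23 library was small beside the spread within WT. Means were 65.3 ± 24.1 and 21.1 ± 4.57 CPM (SD, n = 5), 3.09-fold lower, with a log2 fold change of -1.63 ± 0.33 (SE, edgeR adjusted p = 3.36e-05, quasi-likelihood 0.00288). With replicates 1 to 3 alone the difference was -1.50 and the call was lost (edgeR likelihood ratio adjusted p = 0.165, quasi-likelihood 0.260). Within the libraries of negative and of positive GC correlation it was -2.14 and -1.19. Aldh1a7 shares 1.01% of the 75-base stretches of Aldh1a1.

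Aldh1a2, the embryonic retinal dehydrogenase, varied with the library sets. WT replicates 1 to 5 were at 9.78, 60.1, 48.3, 35.7 and 15.1 CPM, and KSR23 replicates 1 to 5 at 23.4, 17.0, 4.21, 18.3 and 9.57 CPM. In each group the libraries with a negative GC correlation were the 2 lowest. The log2 fold change was -1.22 ± 0.54 (SE, 95% interval -2.28 to -0.17), which did not pass (edgeR adjusted p = 0.104, quasi-likelihood 0.148). With the library set as a term, an alternative chosen after the data were seen, it was -1.12 and passed (edgeR adjusted p = 0.00078), as did 29.9% of all genes. Among the 6 libraries of positive GC correlation it was -1.19 (edgeR adjusted p = 0.00455), every KSR23 library there being below every WT library. Among the 4 of negative correlation it was -1.01 (edgeR adjusted p = 0.228) and with replicates 1 to 3 alone -1.37 (edgeR adjusted p = 0.496), and neither passed. Without WT replicate 1 it was -1.46 (edgeR adjusted p = 0.0298, beside 15.8% of all genes called), and with upper quartile scaling -1.33 (edgeR adjusted p = 0.0403, beside 16.5% of all genes called).

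Aldh1a3, a further enzyme of this step, was outside the 9 genes and is named after its values were seen. It was at 96.0 ± 14.1 CPM in WT and 72.7 ± 13.6 CPM in KSR23, a log2 fold change of -0.40 ± 0.26 (SE, edgeR adjusted p = 0.298). Per kilobase of exon, Aldh1a1, Aldh1a2 and Aldh1a3 summed to 63.9 ± 4.26 CPM per kb in WT (56.3 to 66.3) and 31.6 ± 3.28 CPM per kb in KSR23 (28.9 to 37.3; SD, n = 5). In WT the SD of the sum was below those of Aldh1a1 and Aldh1a2 alone (10.1 and 9.46 CPM per kb), and in KSR23 it lay between them (1.91 and 3.34 CPM per kb). Aldh1a3 made up 33.7% ± 3.0 of the sum in WT and 51.9% ± 8.64 in KSR23. These shares were not tested.

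Scarb1, the scavenger receptor for carotenoids and cholesterol esters, did not pass the test. It was at 4.95, 39.2, 29.8, 26.1 and 9.27 CPM in WT replicates 1 to 5 and at 23.1, 32.2, 3.70, 24.7 and 13.9 CPM in KSR23 replicates 1 to 5. The groups overlapped throughout, and the spread ran along the library sets: the libraries of negative GC correlation were the lowest in both groups. The log2 fold change of -0.16 ± 0.60 (SE, edgeR adjusted p = 0.892) had a 95% interval from -1.33 to 1.0, which holds changes in both directions.

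Isx, an intestinal homeobox repressor of Scarb1 and of the carotene-cleaving enzyme Bco1, itself induced by retinoic acid, showed the opposite spread. WT replicates 1 to 5 were at 228, 166, 138, 196 and 206 CPM, and KSR23 replicates 1 to 5 at 187, 178, 414, 232 and 353 CPM. Of the KSR23 libraries 3 exceeded all WT libraries, among them both with a negative GC correlation. The log2 fold change was 0.54 ± 0.31 (SE, 95% interval -0.06 to 1.14) and did not pass (edgeR adjusted p = 0.222). The library with the most Isx, KSR23 replicate 3, had the least Scarb1 and the most negative GC correlation.

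Rbp2, the cellular retinol-binding protein of enterocytes, was by far the most abundant of the 9 genes. It stood at 6577, 4078, 5059.9, 5249 and 6453 CPM in WT replicates 1 to 5 and at 2123, 4345, 6707, 2986 and 5278 CPM in KSR23 replicates 1 to 5. KSR23 replicates 1 and 4 were below every WT library, and KSR23 replicate 3 was above them all. The log2 fold change was -0.35 ± 0.33 (SE, 95% interval -0.99 to 0.28; edgeR adjusted p = 0.503). It passed in 1 of 25 fits, when the Y-linked fraction of each library entered as a covariate, where it was -1.07 (edgeR adjusted p = 0.0238, beside 14.7% of all genes called).

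The genes that receive the retinoic acid signal gave low values. Rarb, whose window holds the motif pair printed above, was at 1.64, 2.40, 2.83, 2.45 and 2.59 CPM in WT and 2.67, 1.19, 1.15, 1.93 and 2.31 CPM in KSR23 (replicates 1 to 5). The groups overlapped, with a log2 fold change of -0.35 ± 0.35 (SE, 95% interval -1.03 to 0.34; edgeR adjusted p = 0.547). Rarb overlaps Top2b and Gm48162, and 32.1% of its 75-base stretches occur in these genes. Crabp2 was barely detected, with 4, 4, 4, 0 and 13 counts in the WT libraries against 4, 1, 0, 1 and 4 in the KSR23 libraries, and its log2 fold change of -1.90 ± 1.01 (SE, edgeR adjusted p = 0.170) rests on them. Its 95% interval, from -3.89 to 0.08, holds both a large fall and no change.

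**Figure D2:**
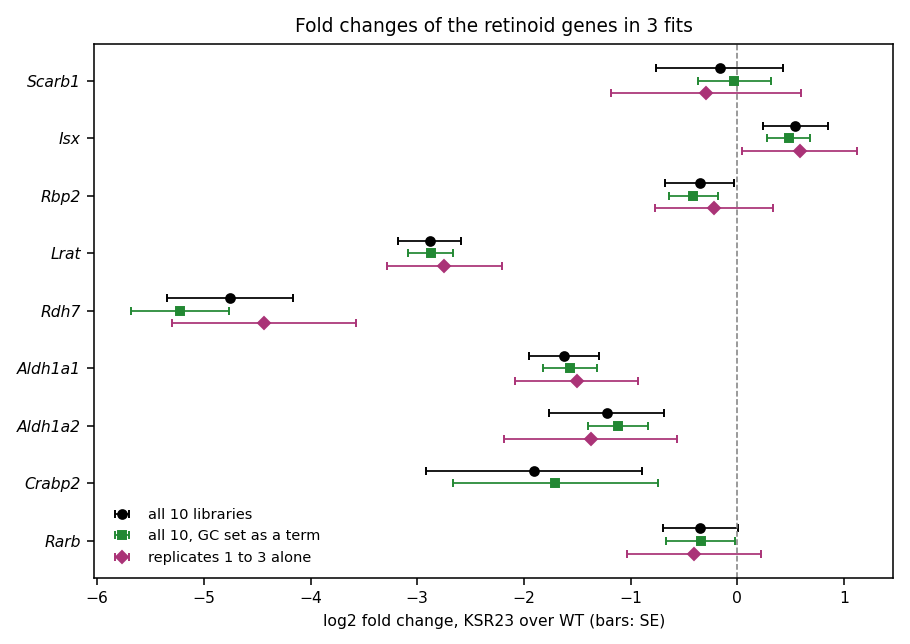
Log2 fold change, KSR23 over WT (x axis; bars, SE), of the 9 retinoid genes in 3 fits: all 10 libraries (black circles), all 10 with the GC set of the library as a term (green squares) and replicates 1 to 3 alone (purple diamonds; Crabp2 was not fitted there). Lrat (-2.88), Rdh7 (-4.75) and Aldh1a1 (-1.63) lie left of 0 in each fit, and the SE bars are shortest with the GC set as a term.

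Expressed per kilobase of exon, which allows levels of different genes to be compared, the order in WT was Rbp2 (6736 ± 1280.2 CPM per kb, SD, n = 5), Isx (104 ± 19.7), Lrat (35.2 ± 9.11), Aldh1a1 (27.3 ± 10.1), Rdh7 (19.0 ± 4.96), Aldh1a2 (14.9 ± 9.46), Scarb1 (8.67 ± 5.70), Rarb (0.702 ± 0.131) and Crabp2 (0.193 ± 0.196). Neighbours from Lrat to Scarb1 overlapped in their library values, as did Rarb and Crabp2, and the other steps did not. In KSR23 the order was Rbp2 (5268 ± 2233 CPM per kb), Isx (152 ± 58.6), Aldh1a1 (8.82 ± 1.91), Scarb1 (7.74 ± 4.35), Aldh1a2 (6.40 ± 3.34), Lrat (4.77 ± 1.32), Rdh7 (0.712 ± 0.763), Rarb (0.546 ± 0.199) and Crabp2 (0.0472 ± 0.0471). Lrat was thus below Isx in both groups, and Rdh7 came down to the level of the receptor gene Rarb, with which it overlapped in KSR23 only. Neighbours from Aldh1a1 to Lrat overlapped in KSR23. This order was described and not tested.

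**Figure D3:**
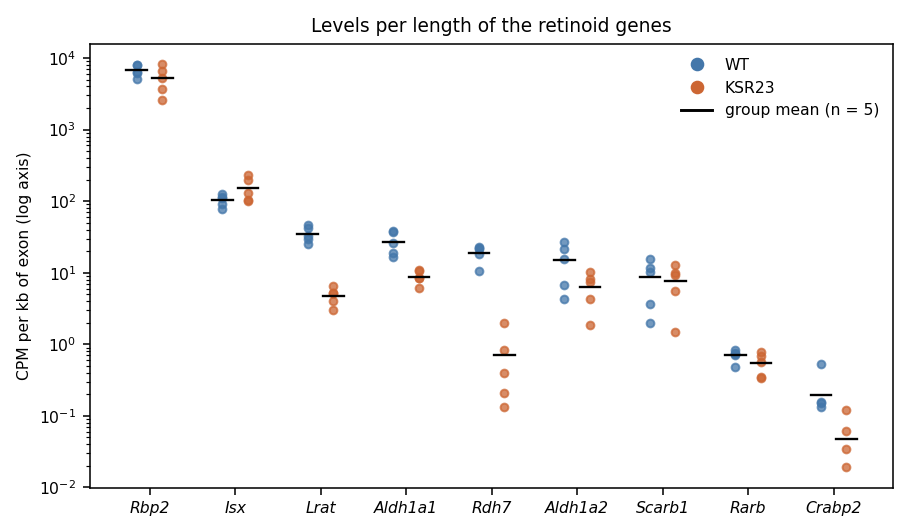
CPM per kilobase of exon (y axis, log scale) of the 9 retinoid genes, ordered by their WT mean; points are libraries (WT blue, KSR23 orange, n = 5 each) and black bars are group means, and libraries with 0 counts are not drawn (1 WT and 1 KSR23 library of Crabp2). Rdh7 moves from 19.0 in WT to 0.712 in KSR23, beside Rarb at 0.546.

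The spread within groups is shown against the GC correlation of the library for the genes it touches. Of the 9 genes, Rbp2 and Isx were higher in the negative than in the positive libraries in both groups without overlap, and Aldh1a2 and Scarb1 were lower. This is 4 of 9, beside 31.9% of all genes tested (15.2% higher and 16.7% lower). Lrat, Rdh7, Aldh1a1, Crabp2 and Rarb overlapped between the sets in at least 1 group. The negative libraries comprised 2 WT and 2 KSR23 libraries, so the sets are not the groups.

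**Figure D4:**
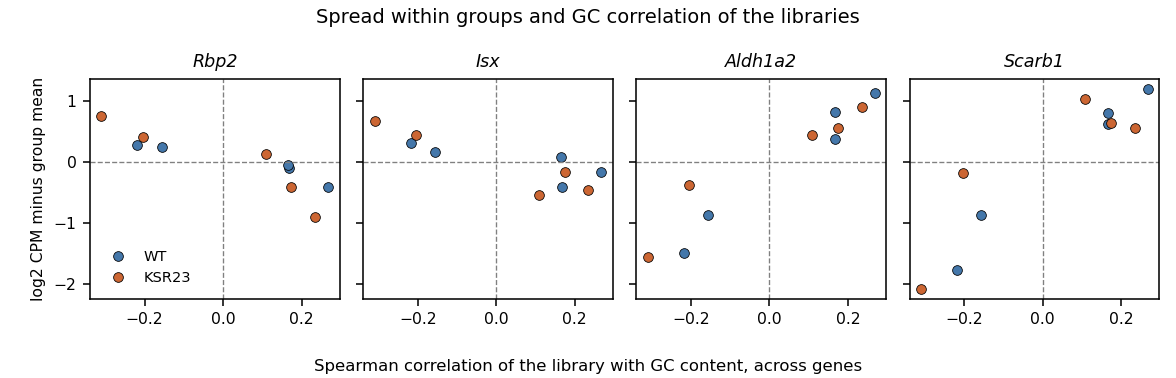
Deviation of the log2 CPM of a library from its group mean (y axis) against the Spearman correlation of that library's expression with gene GC content (x axis), for Rbp2, Isx, Aldh1a2 and Scarb1; points are WT (blue) and KSR23 (orange) libraries, n = 10. The 4 libraries with a negative correlation lie on the left of each panel, high for Rbp2 and Isx and low for Aldh1a2 and Scarb1.

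A further 61 genes of the pathway were examined by lists. Of these 56 could be tested, and 10 were called higher and 11 lower in KSR23, beside 18.5% of all genes in either direction. Their median log2 fold change was -0.10. Most of the calls lay in 1 list. Among 21 tested genes of the list for retinol and retinal oxidation and reduction, 5 rose and 7 fell. This list also holds the pseudogene Rdh18-ps, and activity on retinoids was not checked for each member. No gene of retinyl ester handling (5 tested) and none of retinoic acid clearance (3 tested) was called by either edgeR test or by DESeq2. At an unadjusted p under 0.05 of the likelihood ratio test there were 2 of the former, Retsat and Mttp, and 0 of the latter.

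Several genes of the retinol and retinal list fell with Rdh7. Sdr16c5 was at 51.7, 42.7, 42.0, 51.9 and 51.8 CPM in WT and 3.58, 0.613, 3.26, 1.56 and 2.0 CPM in KSR23, a log2 fold change of -4.44 ± 0.40 (SE, edgeR adjusted p = 1.66e-19). Rdh5, which oxidises cis retinol, was at 35.7 ± 8.22 CPM in WT against 5.47 ± 2.97 CPM for KSR23 (SD over 5 libraries, log2 fold change -2.71, edgeR adjusted p = 2.34e-08) and overlaps Bloc1s1, with which it shares 17.6% of its 75-base stretches. Aldh1a7, the closest relative of Aldh1a1, went from 24.2 ± 6.54 to 2.56 ± 1.42 CPM (log2 fold change -3.24 ± 0.44, edgeR adjusted p = 1.11e-09), with all 5 KSR23 libraries below all WT libraries. Rdh1 was called lower (-2.71, edgeR adjusted p = 0.0122) on 4 to 12 counts per WT library against 0 to 4 per KSR23 library, and neither the quasi-likelihood F test (adjusted p = 0.0981) nor the fit without WT replicate 3 (-2.37, edgeR adjusted p = 0.0585) called it. Its log2 fold change reached -3.43 without KSR23 replicate 3. Of genes outside the naming rule, picked after their values were seen, the alcohol dehydrogenase Adh1 (-1.94, with 139 CPM in WT and 36.5 CPM in KSR23, edgeR adjusted p = 2.44e-05), the retinal reductase Dhrs3 (-1.23, with 104 and 44.3 CPM, edgeR adjusted p = 0.00173) and Dhrs4 (-1.15, with 317 and 143 CPM, edgeR adjusted p = 0.00122) were also lower. In replicates 1 to 3 alone, Sdr16c5 (-4.16), Rdh5 (-2.65), Aldh1a7 (-3.11) and Adh1 (-2.18) were called (edgeR adjusted p 1.13e-05 to 0.0228), and Rdh1 (-2.26), Dhrs3 (-1.08) and Dhrs4 (-0.98) were not (0.308 to 0.407).

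Other genes of the same list rose. Rdh16 was at 0.0310, 0.0707, 0.0734, 0.490 and 0.263 CPM in WT (1 to 17 counts) and at 1.76, 2.48, 2.90, 1.84 and 2.88 CPM in KSR23 (73 to 124 counts), a log2 fold change of 3.63 ± 0.57 (SE, edgeR adjusted p = 5.06e-08) that reached 4.48 without WT replicate 4. Rdh9 was at 1.21, 0.424, 1.32, 0.778 and 1.16 CPM in WT and at 3.57, 7.29, 9.66, 5.33 and 10.7 CPM in KSR23 (2.89 ± 0.41, edgeR adjusted p = 2.50e-09). All KSR23 libraries exceeded all WT libraries in both genes. Rdh9 overlaps Rdh16f1 and shares 65.3% of its 75-base stretches with other genes, Rdh16 among them, so its counts are uncertain; for Rdh16 the shared part was 9.64%. Dhrs9, which oxidises retinol and hydroxysteroids, rose, with WT at 8.97 ± 2.86 CPM and KSR23 at 46.4 ± 24.3 CPM (SD over 5 libraries, log2 fold change 2.37, edgeR adjusted p = 2.20e-05). KSR23 replicate 2, at 10.2 CPM, lay within the WT values of Dhrs9. Rdh13 rose from 4.07 ± 1.21 to 11 ± 5.45 CPM (1.43, edgeR adjusted p = 0.00294), and Rdh11, outside the naming rule, from 14.3 ± 3.54 to 32.0 ± 12.4 CPM (1.16, edgeR adjusted p = 0.00909). With replicates 1 to 3 alone, Rdh16 (5.32), Rdh9 (2.82) and Dhrs9 (2.60) were called (edgeR adjusted p 1.18e-07 to 0.0315), and Rdh13 (1.62) and Rdh11 (1.35) were not (0.185 and 0.254).

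**Figure D5:**
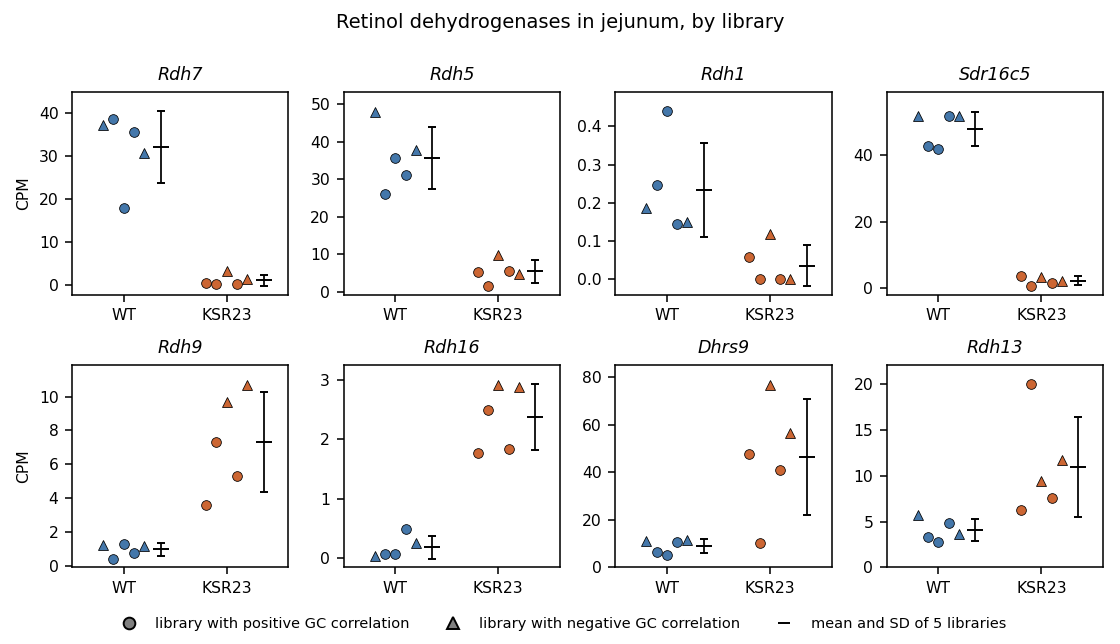
CPM (y axes, linear and separate for each gene) of 8 retinol dehydrogenases in the 5 WT (blue) and 5 KSR23 (orange) libraries, with symbols as in the plot of the 9 genes and the mean ± SD of each group at its right. The 4 genes of the upper row are lower in every KSR23 library, and in the lower row Rdh9, Rdh16 and Rdh13 are higher in every KSR23 library while Dhrs9 overlaps in KSR23 replicate 2.

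Rdh1, Rdh7, Rdh9 and Rdh16 lie together on chromosome 10, within chr10:127759721-127888817. Rdh7 gave 97.7% ± 1.35 of their summed CPM per kb in WT and 17.4% ± 11.9 in KSR23 (SD, n = 5). Rdh9 gave 1.61% ± 1.05 and 59.4% ± 9.37, and Rdh16 gave 0.297% ± 0.275 and 23.0% ± 5.12. The sum itself was 19.4 ± 4.88 CPM per kb in WT and 3.50 ± 1.59 in KSR23. The level of Rdh9 was taken over all its exons. Reads from stretches it shares with genes elsewhere, such as Rdh16, have several alignments and were not counted. Reads from stretches shared with the overlapping Rdh16f1 may have been left out or counted for Rdh9. Its share and the KSR23 sum may therefore be too low or too high. The grouping was made after the values were seen and was not tested.

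Among the binding proteins, Rbp7 was called lower (log2 fold change -1.47, edgeR adjusted p = 0.0242, quasi-likelihood 0.0581). It was called in 17 of 25 fits and lost the call without WT replicate 1 or 5 (-1.41 and -1.31), without KSR23 replicate 1 or 4 (-1.20 and -1.21) and with replicates 1 to 3 alone (-1.14, edgeR adjusted p = 0.534), while the Y-linked covariate gave -2.91. Ttr, the plasma carrier of thyroxine and of Rbp4, was at 631, 269, 515, 417 and 589 CPM in WT and 44.1, 6.64, 60.1, 31.8 and 32.8 CPM in KSR23 (-3.79 ± 0.46 SE, edgeR adjusted p = 1.27e-11), and with replicates 1 to 3 alone it was -3.64 (edgeR adjusted p = 0.00081). The hepatocyte markers given with Rdh7 summed to 167 to 312 CPM in WT, nearly all of it Serpina1a, and to 2.32 to 29.8 CPM in KSR23, where Serpina1a was at 1.71 to 14.1 CPM and Fgb at 0.0645 to 15.2 CPM. Their part in the result was not tested.

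In the uptake list, 2 of 6 genes rose. Cd36, a receptor for fatty acids, was at 554 ± 91.8 CPM in WT and 1179 ± 573 CPM in KSR23 (SD, n = 5, log2 fold change 1.09, edgeR adjusted p = 0.00956), with all KSR23 libraries above all WT libraries. Bco2, which cleaves carotenoids at an off-centre bond, was at 22.9 ± 5.63 and 56.4 ± 33.0 CPM (1.30, edgeR adjusted p = 0.0194), and KSR23 replicate 2 lay within the WT values. Neither Cd36 (1.21) nor Bco2 (1.29) was called with replicates 1 to 3 alone (edgeR adjusted p = 0.303 and 0.431). Cd36 lost its call in 5 of 24 alternatives, among them upper quartile scaling (0.93), the replicate block (0.97) and the Y-linked covariate (0.58). The call of Bco2 was lost in 11 of 24 alternatives, among them without WT replicate 2, 3 or 4 (1.24, 1.27 and 1.32) and without KSR23 replicate 3 or 5 (0.99 and 1.15). Bco1, which makes retinal from beta-carotene and is a target of Isx, was at 1.53 ± 0.547 and 1.19 ± 0.525 CPM and did not pass (-0.36 ± 0.42 SE, edgeR adjusted p = 0.618).

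Genes that respond to retinoic acid showed no common direction. The hydroxylase Cyp26a1, with the motif pair printed above, gave 0 to 3 counts per WT library against 0 to 7 per KSR23 library, and Cyp26b1 0.609 ± 0.229 and 0.825 ± 0.477 CPM (log2 fold change 0.44 ± 0.60 SE, edgeR adjusted p = 0.679). The log2 fold change of Cyp26a1 was 0.36 ± 1.45 (SE, 95% interval -2.48 to 3.20; edgeR adjusted p = 0.896), an interval that holds large changes in both directions. Of 9 tested genes commonly induced by retinoic acid, Tgm2, a transglutaminase, rose (77.7 ± 16.4 to 171 ± 26.1 CPM; 1.13 ± 0.25 SE, edgeR adjusted p = 0.000208), as did the orphan receptor gene Gprc5a (1.93 ± 0.44 SE, edgeR adjusted p = 0.000331). Rarres2, which encodes the chemoattractant chemerin, fell (92.2 ± 14.2 to 35.0 ± 9.23 CPM, -1.40 ± 0.27 SE, edgeR adjusted p = 1.38e-05). Rarres2 overlaps Lrrc61, which holds 25.9% of its 75-base stretches. For Tgm2, 17.1% occur in the overlapping Gm20412 and Rprd1b. Of 6 nuclear receptors, Ppard, a fatty acid receptor that can also bind retinoic acid, was higher (0.739 ± 0.197 to 2.36 ± 0.744 CPM; 1.67 ± 0.37 SE, edgeR adjusted p = 0.000153) and Rara, Rarg, Rxra, Rxrb and Rxrg were not called. With replicates 1 to 3 alone, 8 genes of the wider pathway were called in place of 21. Tgm2 (1.24), Gprc5a (1.83), Ppard (1.73) and Rarres2 (-1.28) were not called there (edgeR adjusted p 0.0963 to 0.197). The Y-linked covariate lowered Gprc5a to 0.98 and Rdh13 to 0.93, where neither was called (edgeR adjusted p = 0.143 and 0.191), and moved Aldh1a7 to -4.17 and Rdh9 to 2.15, where both were.

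Markers of other cell types were counted beside these results. Of 7 enterocyte and epithelial genes, Cdh1 and Krt20 were higher and Fabp2 and Lct lower, and their sum was 10716 to 17954 CPM in WT and 7856 to 11702 CPM in KSR23. Without Fabp2 the other 6 summed to 3645 ± 1417 CPM in WT and 4994 ± 684 CPM in KSR23 (SD, n = 5), so the lower sum was that of Fabp2. The other 6 had no common direction. From WT to KSR23, mean CPM was higher for Krt20 (359 to 1674), Vil1 (448 to 718) and Cdh1 (219 to 473). It was lower for Alpi (1637 to 1507), Epcam (367 to 270) and Lct (616 to 352). Of 6 fibroblast genes Dcn was lower, of 5 smooth muscle genes Acta2 was lower, of 4 endothelial genes Cdh5 was lower, and of 5 mesothelial genes Upk1b was higher. None of 7 myeloid and none of 4 enteric neuron and glia genes was called by either edgeR test. DESeq2 called 1 of the myeloid genes, Adgre1, which was also the 1 gene of these lists at an unadjusted p under 0.05. Of 4 proximal intestinal genes Cybrd1 was lower and of 4 distal genes Slc10a2 was higher. The quasi-likelihood F test did not call Cdh1, Lct, Acta2 or Slc10a2 (edgeR adjusted p 0.0538 to 0.0923). Of 4 tested pancreatic acinar genes 3 were lower: Cpa1 (-3.25, quasi-likelihood adjusted p = 0.0595), Cela2a (2 to 78 counts per WT library and 0 to 1 per KSR23 library) and Sycn (4 to 17 counts and 0 in every KSR23 library). The acinar genes summed to 0.477 to 5.70 CPM in WT and 0.0708 to 0.838 CPM in KSR23, with Amy2a5 at 0 in every library. The part of these markers in the retinoid results was not tested.

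The genes whose within-group deviations were most like those of the called genes over the 10 libraries, out of 12888 candidates, were Fbn1 for Lrat (Pearson's r = 0.982), 1700030K09Rik for Rdh7 (0.985) and Ephb3 for Aldh1a1 (0.98). These 10 points share the library differences described above. None of the 3 genes was called between the groups (log2 fold changes -0.46, -0.44 and 0.39). Of the next 2 genes for each, named after their values were seen, Pck1 for Rdh7 (r = 0.976; log2 fold change -2.94, edgeR adjusted p = 2.01e-11) and Batf2 for Aldh1a1 (r = 0.968; log2 fold change 3.91, edgeR adjusted p = 4.67e-20) were called, in opposite directions.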

How the data were processed

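The jejunum of WT and KSR23 mice (5 libraries each) was profiled by oligo-dT primed, PCR-amplified RNA sequencing from picogram inputs, read as single ends of 75 bases. Molecules carried no identifiers, so floors cover counting error only. The deposited values were counts per gene, which the authors made by mapping to mm10 with TopHat2 2.1.0 and counting with HTSeq 0.6.1p1 (versions per the labels), without normalization. The strand setting is not given in the sources used here. Reads with several alignments (8.62 to 17.1 M entries per library) entered no gene, and 27.9% to 35.2% of the entries listed per file were in no gene and were left out. Such a read may be entered once per alignment, so these values may overstate the number of reads. Library totals were 25.5 to 60.9 M.

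Groups came from the sample titles. The 17632 genes that reached 5 counts in any library were fitted with the group as the only term in edgeR 4.0.16 (R 4.3.3), with TMM scaling, and tested by likelihood ratio, as in the study, with Benjamini-Hochberg adjustment over all of them. A gene is called when its adjusted p is under 0.05. The common biological coefficient of variation was 0.498. CPM used TMM-scaled totals, and log2 CPM a prior count of 2. Intervals are the log2 fold change ± the 95% normal range of its SE. The alternatives were the quasi-likelihood F test, DESeq2 1.42.0, other scalings and filters, a replicate block, a covariate of Y-linked counts, replicates 1 to 3 alone and leaving out each library. Those on GC sets and the quasi-likelihood test on replicates 1 to 3 were chosen after the data were seen. The code was tested on simulated data. Same-numbered libraries did not deviate together (correlations -0.692 to 0.409), so the numbers were not taken as pairs.

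Lengths, GC content, positions and shared 75-base stretches came from GENCODE M21 (mm10), which held 22750 of the 24062 symbols (94.5%). Bco1, Stra6l and Adgre1 are listed under the older symbols Bcmo1, 1300002K09Rik and Emr1. All 9 genes are named, and of each further list and direction up to 4 called genes with the largest change, plus Bco1, Cyp26a1, Cyp26b1 and Aldh1a7. A gene of the further lists is not reported here. The 9 genes and the lists were chosen with earlier results of these data known. Upstream sequences are from RefSeq (GRCm38.p6), and 45 of the 61 further genes had a window. Each sample had its own deposited values, and no libraries were pooled here.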

Additional observations from a re-analysis of the deposited data

Results flagged for a closer look

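The 9 genes and the further genes named by rule were scanned in each group. Cyp26a1 in WT was left out, as no library there exceeded 3 counts. In these 57 sets of 5 libraries, the gap between the most extreme library and its neighbour exceeded the Dixon limit of 0.71 of the range in 2, where chance would give about 1 in 20, or 2.85. Both lay in KSR23 replicate 2. Cyp26b1 was at a log2 CPM of -3.07 there, and the next lowest KSR23 library was at -0.24. Ttr was at 2.74, and the next lowest KSR23 library at 5.00.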

How the results depend on the processing

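Over all results and alternatives, 795 values stayed on the same side of the threshold or within the replicate spread, 53 lost a call, 5 gained one, 7 counts moved by more than 1.5 times and 6 values changed sign; the cause was not tested. The count of called genes was 3261, and it was 579 with replicates 1 to 3 alone, 140 with the quasi-likelihood F test on them, 5268 with the GC set as a term and 2106 in the 4 libraries of negative GC correlation; leaving out 1 library gave 2370 to 3802. Upper quartile scaling shifted the median of all genes from 0.03 to -0.13 and the share of called genes that were higher from 52.6% to 39.0%. Among the 9 genes, 3 were called, 1 with the quasi-likelihood F test on replicates 1 to 3 (Lrat), and 3 or 4 with 1 library left out. In that test Rdh7 was -4.45, and Aldh1a1 was -1.50 in both fits of replicates 1 to 3, where it was not called. In the wider pathway 21 genes were called, 8 and 2 in the fits of replicates 1 to 3, and 19 to 22 with 1 library left out.

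Rbp2 reached -1.07 with the Y-linked covariate. Aldh1a2 passed with upper quartile scaling (-1.33), with the GC set (-1.12), in the positive libraries (-1.19) and without WT replicate 1 (-1.46; range with 1 library left out -1.46 to -0.87). Scarb1 changed sign with the Y-linked covariate (0.07), in the negative libraries (0.14), without WT replicate 2 (0.20) and without KSR23 replicate 3 (0.10), its range with 1 library left out being -0.42 to 0.20. Cyp26a1 changed sign with the replicate block (-0.30) and without KSR23 replicate 2 (-0.82; range with 1 library left out -0.82 to 0.88). With the replicate block 2202 genes were called, Lrat, Rdh7 and Aldh1a1 kept their calls (-2.90, -5.39 and -1.57), and 18 of the wider list were called; the numbers do not pair the libraries. Crabp2 was not tested with replicates 1 to 3, with 5 or more counts in every library, in the positive libraries or without WT replicate 5. Few counts widen the intervals of Crabp2 (-3.89 to 0.08) and Cyp26a1 (-2.48 to 3.20).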
